A study of Mus musculus and Rattus norvegicus with 24 samples.

Results

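Enzymes that mitochondria use to burn fatty acids were measured in single heart muscle cells. They are the 8 genes Acaa2, Acadl, Acadm, Acads, Acadvl, Etfb, Acot2 and Cpt1b, chosen by name out of 9595 listed genes and followed in all 24 cells, 8 in each of 3 groups. Adult cells were wild-type ventricular cardiomyocytes isolated from adult rats. Transplanted cells were cardiomyocytes made from mouse embryonic stem cells, injected into the heart of newborn rats and kept there for 30 days. Cultured cells were cardiomyocytes of the same stem cell line after 30 days in a dish. The line holds the alleles Isl1-Cre and Rosa-RFP and the transgene aMHC-GFP, so a red reporter is switched on by Cre under Isl1, a gene of cardiac progenitors, and a green reporter is driven by the cardiomyocyte promoter aMHC. Some cells came from flow sorting and others from hand picking. Neither animals nor cultures are named in the labels, so 8 cells of a group were treated as 1 sample and no test between groups was made. The adult cells are rat and the other cells are mouse, and all reads were mapped to the mouse genome, so species and group cannot be told apart in any adult value.

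Beta oxidation shortens an activated fatty acid by an acetyl unit in each turn of a cycle, and in the adult heart it is a main source of energy. Carnitine palmitoyltransferases move long chains onto carnitine and back to coenzyme A for their passage into mitochondria. Acyl-CoA dehydrogenases specialised by chain length then start each turn, and a flavoprotein takes up their electrons for the respiratory chain. The hydratase, hydroxyacyl dehydrogenase and thiolase steps complete the turn. The fetal heart relies more on glucose and lactate, and heart muscle shifts towards fatty acids after birth.

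Total counts per cell ran between 108546 and 223744 in adult cells, between 88796 and 344224 in transplanted cells and between 16099 and 60789 in cultured cells. The level (CPM) of a gene in a group is its count summed over 8 cells, scaled to a total of 1000000, and brackets hold exact 95% intervals for counting error only. Where a group had 0 counts, 3 counts were put in their place as its floor, which is 2.36 CPM in adult, 2.30 CPM in transplanted and 14.6 CPM in cultured cells, and the ratio is then a lower bound. Of 11 listed cardiomyocyte markers, 10, 10 and 11 had counts in adult, transplanted and cultured cells, and the atrial light chain Myl7 was at 0 in adult and in transplanted cells. Their summed share of a cell's counts was 13.5 to 19.5% in adult, 13.3 to 20.9% in transplanted and 0.00837 to 16.8% in cultured cells. Cultured cell G held 20 counts of 1 marker and cultured cell H held 2 counts over 2 markers, so these libraries do not bear out their label. Of 8 listed fibroblast markers, 1 had counts in adult cells, 1 in transplanted cells and 4 in cultured cells, with summed shares of 0 to 0.000582%, 0 to 0.000511% and 0 to 0.209%. Endothelial markers, of which 5 are listed, took at most 0, 0.110 and 0.00505% of a cell's counts in adult, transplanted and cultured cells. The nuclear RNA Rpph1 took a median of 0% of counts in adult cells, 0% in transplanted cells and 1.28% in cultured cells. The median total exon length of a gene was weighted by counts, with Ttn left out. It came to 2063 bases in adult, 2053.5 in transplanted and 5738.5 in cultured cells. The part of these features in the results was not tested.

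The 8 genes together were high in adult and transplanted cells and low in cultured cells. They took 0.820% of all counts in adult cells, 0.970% in transplanted cells and 0.0543% in cultured cells. Per cell, their summed level was 2279 CPM at the lowest, 7310 at the median and 11974 at the highest in adult cells. In transplanted cells the lowest, median and highest cells had 4978, 8804 and 16378 CPM, and in cultured cells 0, 229 and 1721 CPM. Every adult and every transplanted cell thus lay above every cultured cell, while adult and transplanted cells overlapped. The summed level was 8203 CPM (8046 to 8362) in adult cells against 543 CPM (447 to 654) in cultured cells, a ratio of 15.1 (12.5 to 18.4). Against the same cultured cells, the 9699 CPM (9531 to 9870) of transplanted cells gave a ratio of 17.9 (14.8 to 21.7). Between adult and transplanted cells the ratio was 0.846 (0.824 to 0.868). These comparisons share groups, so they are not independent of each other. In the 4 cultured cells with at most 1% of counts from Rpph1, the ratios were again 15.1 for adult and 17.9 for transplanted cells, a choice of cells made after their values were seen. Of the 46 counts of the 8 genes in these 4 cells, 39 came from cell G, and without it the ratios were 72.9 for adult and 86.1 for transplanted cells. Without cultured cells G and H, also chosen afterwards, they were 17.9 for adult and 21.2 for transplanted cells.

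**Figure D1:**
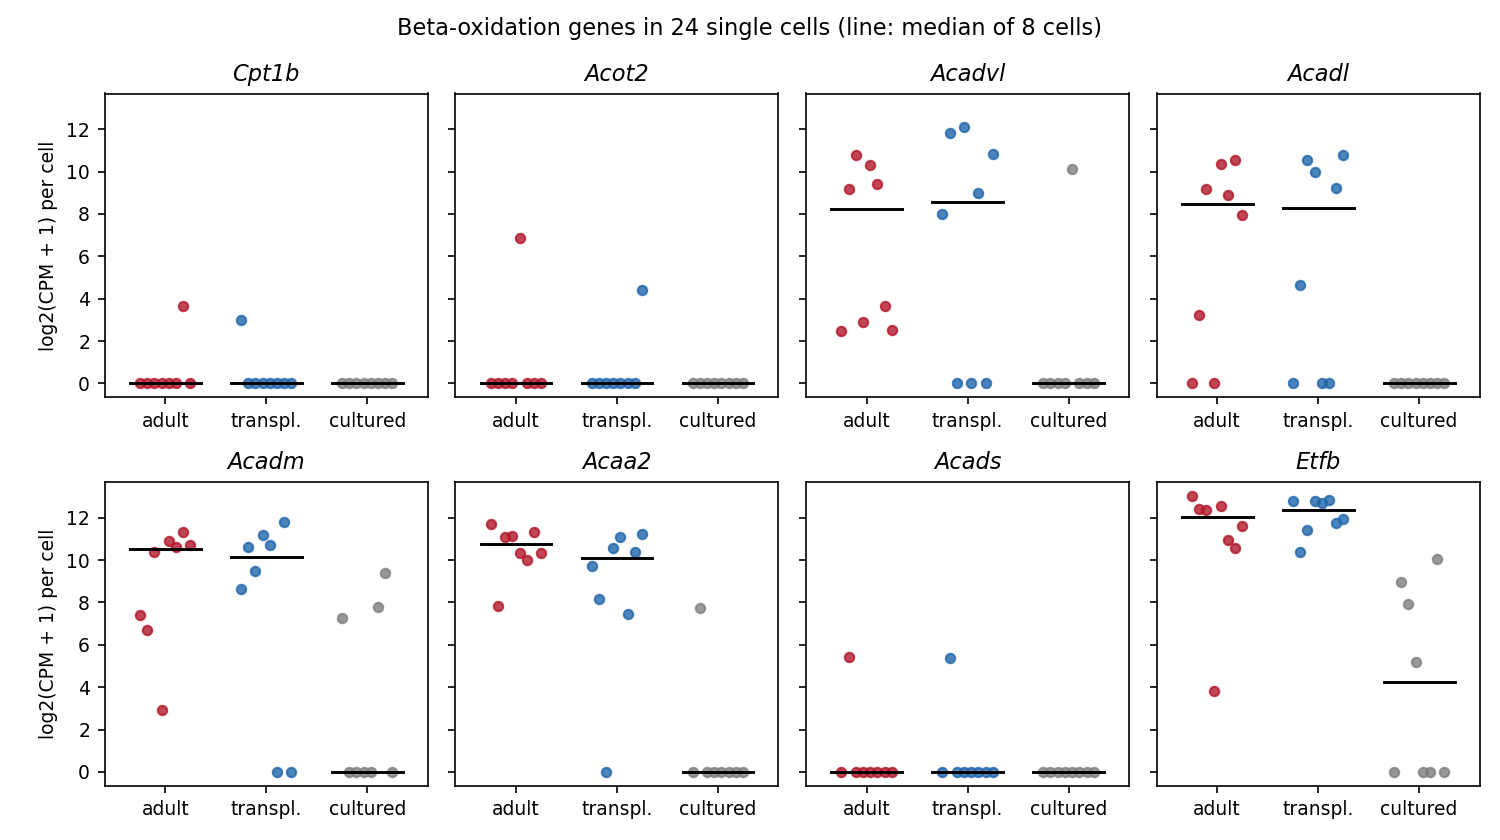
Level of each gene in each cell, as CPM on a log2 axis after adding 1, with adult, transplanted and cultured cells side by side. Each point is 1 cell and the line is the median of 8 cells. The 5 abundant genes lie high in most adult and transplanted cells and are at 0 in most cultured cells, while Acads, Acot2 and Cpt1b are at 0 in nearly every cell.

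Etfb, Acaa2, Acadm, Acadl and Acadvl, the 5 abundant genes, carried nearly all of these counts. In levels per kilobase of exon, the order in adult cells was Etfb (3550 CPM per kb), Acaa2 (1273), Acadm (299), Acadl (247), Acadvl (170), Acot2 (5.73), Acads (1.73) and Cpt1b (0.466). In transplanted cells Etfb (4365 CPM per kb) and Acaa2 (914) again led, followed by Acadvl (533), Acadl (369), Acadm (269), Acot2 (2.45), Acads (1.69) and Cpt1b (0.228). Cultured cells had Etfb at 246 CPM per kb, Acaa2 at 41.6, Acadvl at 32.5 and Acadm at 27.3, with the other 4 genes at 0. The 3 dehydrogenases of long and medium chains therefore stood in opposite order in adult and in transplanted cells. Without transplanted cell H, Acadm (365 CPM per kb) stood above Acadl (183) there too, with Acadvl (482) still first. In adult cells without cell G, Acadvl (196 CPM per kb) stood above Acadl (170), with Acadm (242) still first. The full reversal thus rests on single cells. Per kilobase of exon shared with no other gene, Acadm and Acadvl each held 35.3% of the adult dehydrogenase level, and Acadl held 29.2%. The ranges over single cells overlapped for these 3 neighbours in both groups, and the counting intervals of Acot2 and Acads overlapped, as did those of Acads and Cpt1b. Exon lengths are those of the mouse genes, also for the rat cells.

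**Figure D2:**
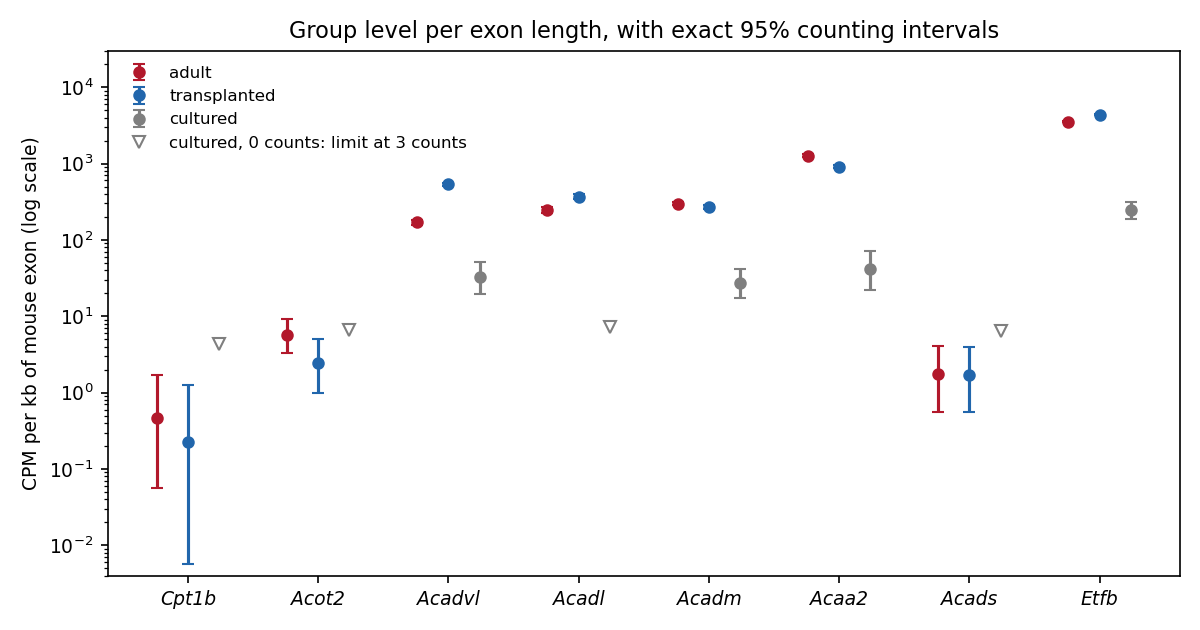
Level of each gene in CPM per kilobase of exon on a log axis in adult, transplanted and cultured cells, with exact 95% Poisson intervals of the summed counts and open triangles at the level of 3 counts where cultured cells had 0. Etfb and Acaa2 lead in every group, and Acadvl stands above Acadm in transplanted cells and below it in adult cells.

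At least 2-fold higher levels in adult than in cultured cells were seen for 5 of the 6 genes with 10 or more counts over both groups, namely Acaa2, Acadl, Acadm, Acadvl and Etfb. The count was again 5 without cultured cells G and H. None was 2-fold lower. Among all 5132 genes that passed the same minimum, 23.0% were at least 2-fold higher in adult cells and 62.1% were at least 2-fold lower. In transplanted against cultured cells the same 5 genes, all that reached the minimum, were at least 2-fold higher, with and without cultured cells G and H, where 22.5% of 4958 genes were higher and 64.0% lower. Adult and transplanted cells differed by at least 2-fold for 2 of 7 genes, with Acot2 higher in adult cells, where 44.3% of 3501 genes were higher. Acadvl was the gene at least 2-fold lower in adult cells, as were 34.8% of all genes. Against cultured cells the median log2 ratio of the genes that passed was 3.65 for adult cells (all genes, -4.04) and 4.15 for transplanted cells (all genes, -4.53). Between adult and transplanted cells it was 0.04 (all genes, 0.37). Acadl passed the minimum against cultured cells only through its counts in the other group. So did Acot2 in adult against cultured cells, with 16 counts in 1 adult cell and 0 in cultured cells. With cultured cells at the floor, Acot2 is part of the median of 3.65.

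Cpt1b, the muscle form of carnitine palmitoyltransferase and the entry gate for long chains, was barely counted. It had 2 counts in adult cell G (11.6 CPM there), 1 count in transplanted cell A (7.04 CPM) and 0 counts in cultured cells. These numbers lie at or below the floor in every group, so no ratio is given. Among its exon bases, 81.4% are shared with the annotated gene Gm44502 on the same strand, and whether the authors' counting left out such reads was not tested. The other forms Cpt1a and Cpt1c had 0 counts in adult and in transplanted cells, and 4 and 28 counts in cultured cells. The deposited counts of these forms were thus at or near 0 in adult and transplanted cells. Whether the shared bases lowered those of Cpt1b was not tested. Acot2, a mitochondrial thioesterase that releases long-chain fatty acids from coenzyme A, had 16 counts in adult cell E (114 CPM there), 7 in transplanted cell H (20.3 CPM) and none elsewhere. The adult-to-transplanted ratio was 2.34 (0.912 to 6.73) and rests on these 2 cells. Without adult cell E it turned direction, to 0.494 with adult cells at the floor, and without transplanted cell H it was at least 4.02.

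The acyl-CoA dehydrogenases differ in the chain they take. Acadvl takes very long chains at the inner membrane, Acadl takes long chains, Acadm medium chains and Acads short chains. Their promoters are shown because the 4 genes carry out the same reaction and yet are counted at very different levels. Each sequence is the 250 bases before the RefSeq start of the mouse gene on GRCm38, written 5′ to 3′ along the gene, all on the minus strand. The windows are chr11:70015429-70015678 for Acadvl, chr1:66863310-66863559 for Acadl, chr3:153944644-153944893 for Acadm and chr5:115119347-115119596 for Acads. Capitals mark AGGTCA, the half-site bound by PPAR, RXR and ERR nuclear receptors, or TGACCT, the same letters on the other strand.
Acadvl: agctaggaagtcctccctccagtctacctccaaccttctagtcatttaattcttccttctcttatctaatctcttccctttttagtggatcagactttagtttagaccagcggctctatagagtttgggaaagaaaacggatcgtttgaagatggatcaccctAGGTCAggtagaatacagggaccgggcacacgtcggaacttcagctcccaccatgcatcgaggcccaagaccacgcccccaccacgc
Acadl: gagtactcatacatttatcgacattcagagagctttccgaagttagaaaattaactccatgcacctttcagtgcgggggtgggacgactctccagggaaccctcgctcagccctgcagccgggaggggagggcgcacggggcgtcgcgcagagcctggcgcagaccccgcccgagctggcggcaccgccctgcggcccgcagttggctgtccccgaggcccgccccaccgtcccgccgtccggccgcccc
Acadm: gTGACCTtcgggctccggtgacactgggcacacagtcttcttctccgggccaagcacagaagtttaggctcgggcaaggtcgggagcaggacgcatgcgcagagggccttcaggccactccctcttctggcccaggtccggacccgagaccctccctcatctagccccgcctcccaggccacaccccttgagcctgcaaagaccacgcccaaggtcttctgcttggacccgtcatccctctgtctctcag
Acads: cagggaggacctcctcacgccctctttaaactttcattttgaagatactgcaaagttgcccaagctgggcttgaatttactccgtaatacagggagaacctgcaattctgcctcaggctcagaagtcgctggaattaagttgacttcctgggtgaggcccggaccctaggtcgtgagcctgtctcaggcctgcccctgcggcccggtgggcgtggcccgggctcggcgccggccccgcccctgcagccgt
AGGTCA begins 87 bases before the start of Acadvl, on the strand of the gene. In Acadm it lies on the opposite strand, 249 bases before the start, and it is not among these letters in Acadl or Acads. Of 32851 promoter windows of the same length, 14.0% hold AGGTCA on either strand. The GC box GGGCGG, searched on both strands, was found in the Acadl window 4 times and in the Acads window 1 time, and 32.7% of all windows hold it. The longer ERR motif TNAAGGTCA, which holds AGGTCA at its 3′ end, was in none of the 4 windows and in 1.14% of all windows. A match is a run of letters in the mouse sequence, the adult cells are rat, and no binding was measured.

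Acadvl had the widest difference between adult and transplanted cells among the 5 abundant genes. Its level was 4.47 CPM in the lowest, 298 in the median and 1782 in the highest adult cell. Transplanted cells had 0, 381 and 4379 CPM at the lowest, median and highest. Adult cells fall apart into 4 with 584 to 1782 CPM and 4 with 1 or 2 counts each, and 5 transplanted cells had counts while 3 had none. In group sums, 458 CPM (421 to 496) in adult cells stood against 1432 CPM (1368 to 1499) in transplanted cells, a ratio of 0.320 (0.291 to 0.351; 0.201 without adult cell C). Cultured cell E, with 18 counts or 1118 CPM, was the single cultured cell with any count. The adult-to-cultured ratio was 5.24 (3.29 to 8.91; 3.30 without adult cell C) and became at least 29.0 without cultured cell E. The transplanted-to-cultured ratio was 16.4 (10.4 to 27.7) and became at least 90.7 without that cell. Exons of Acadvl share 42.9% of their bases with Dvl2 on the opposite strand. If counting ignored strand, reads there may be mixed between the 2 genes or left out, which was not tested.

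Acadl was counted in 6 adult, 5 transplanted and 0 cultured cells. Adult cells had 0, 358 and 1489 CPM at the lowest, median and highest, and transplanted cells had 0, 312 and 1778 CPM. In group sums the level was 495 CPM (458 to 536) in adult and 740 CPM (694 to 788) in transplanted cells, a ratio of 0.670 (0.605 to 0.741). Its direction rests on transplanted cell H, which holds 612 of the 964 transplanted counts, since the ratio was 1.35 without it. Cultured cells had 0 of 206178 counts, and 3 counts, the limit taken for 0, would be 14.6 CPM. Adult cells were at least 34.1-fold higher than cultured cells, and transplanted cells at least 50.9-fold higher, or at least 25.2-fold without transplanted cell H.

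Acadm was counted in more cells than any other of the 4 dehydrogenases, in 8 adult, 6 transplanted and 3 cultured cells. All 8 adult cells had counts, with 6.51, 1455 and 2583 CPM at the lowest, median and highest. In the transplanted group 6 of 8 cells had counts, with 0, 1137 and 3624 CPM. The groups overlapped over most of this range, and the summed levels of 1169 CPM (1111 to 1230) in adult and 1051 CPM (996 to 1108) in transplanted cells gave a ratio of 1.11 (1.03 to 1.20). Transplanted cell H, the deepest library with 344224 counts, had no Acadm count, which allows up to 8.72 CPM, although it had 612 counts of Acadl and 625 of Acadvl. Cultured cells had 22 counts in 3 cells, of which cell G held 15. The summed level there was 107 CPM (66.9 to 162), so that adult cells were 11.0-fold higher (7.21 to 17.5; 30.7-fold without cultured cell G). For transplanted cells the ratio was 9.85 (6.48 to 15.8; 27.5 without cultured cell G).

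Acads had 5 counts in adult cell B (42.3 CPM there), 5 counts in transplanted cell B (40.3 CPM) and none in any other cell. The summed levels of 3.93 CPM (1.28 to 9.18) in adult and 3.84 CPM (1.25 to 8.96) in transplanted cells gave a ratio of 1.02 (0.236 to 4.45), which rests on these 2 cells: it was at most 0.678 without adult cell B and at least 1.54 without transplanted cell B, with the other group at the floor. The 0 counts of cultured cells allow up to 14.6 CPM (3 counts), above both of these levels, so a difference from them was not detectable at this depth.

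Acaa2, the mitochondrial thiolase that cleaves the acetyl unit from medium and longer chains, was counted in all 8 adult and in 7 transplanted cells. Its level was 228, 1738 and 3392 CPM in the lowest, median and highest adult cell, and 0, 1092 and 2397 CPM in transplanted cells. In cultured cells 1 cell, B, had 13 counts, or 214 CPM, so that every adult cell lay above every cultured cell. This held for 1.27% of genes in that comparison. Summed, the level was 1930 CPM (1854 to 2008) in adult, 1385 CPM (1322 to 1451) in transplanted and 63.1 CPM (33.6 to 108) in cultured cells. The adult-to-transplanted ratio was 1.39 (1.31 to 1.48). Adult cells were 30.6-fold above cultured cells (17.9 to 57.6; at least 93.5-fold without cultured cell B). For transplanted over cultured cells the ratio was 22.0 (12.8 to 41.3; at least 67.1 without cultured cell B).

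Etfb, the beta subunit of the electron transfer flavoprotein that serves dehydrogenases of every chain length, was the most abundant of the 8 genes in each group. All 8 adult cells had counts, with 13.0, 4179 and 8407 CPM at the lowest, median and highest. All 8 transplanted cells had counts too, with 1345, 5277 and 7254 CPM, against 0, 17.9 and 1059 CPM in cultured cells. Every transplanted cell lay above every cultured cell, as for 1.33% of genes in that comparison, while adult cell D, with 2 counts, fell among the cultured cells. Summed, the level was 4132 CPM (4021 to 4245) in adult and 5081 CPM (4959 to 5205) in transplanted cells, a ratio of 0.813 (0.784 to 0.843). Against the 286 CPM (218 to 369) of cultured cells, adult cells were 14.4-fold higher (11.2 to 19.0; 21.7-fold without cultured cell G). Transplanted cells were 17.8-fold higher (13.7 to 23.4; 26.6-fold without cultured cell G). Of the Etfb exon bases, 58.2% are shared with Gm45233 or Mir7051 on the same strand.

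The partner subunit Etfa, encoded elsewhere in the genome, followed Etfb between adult and transplanted cells. There were 2.78 Etfb counts per Etfa count in adult cells and 2.83 in transplanted cells, an odds ratio of 0.983 (0.916 to 1.06), which was 0.638 without adult cell A and 1.42 without adult cell H. Cultured cells had 59 Etfb counts and 3 Etfa counts.

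**Figure D3:**
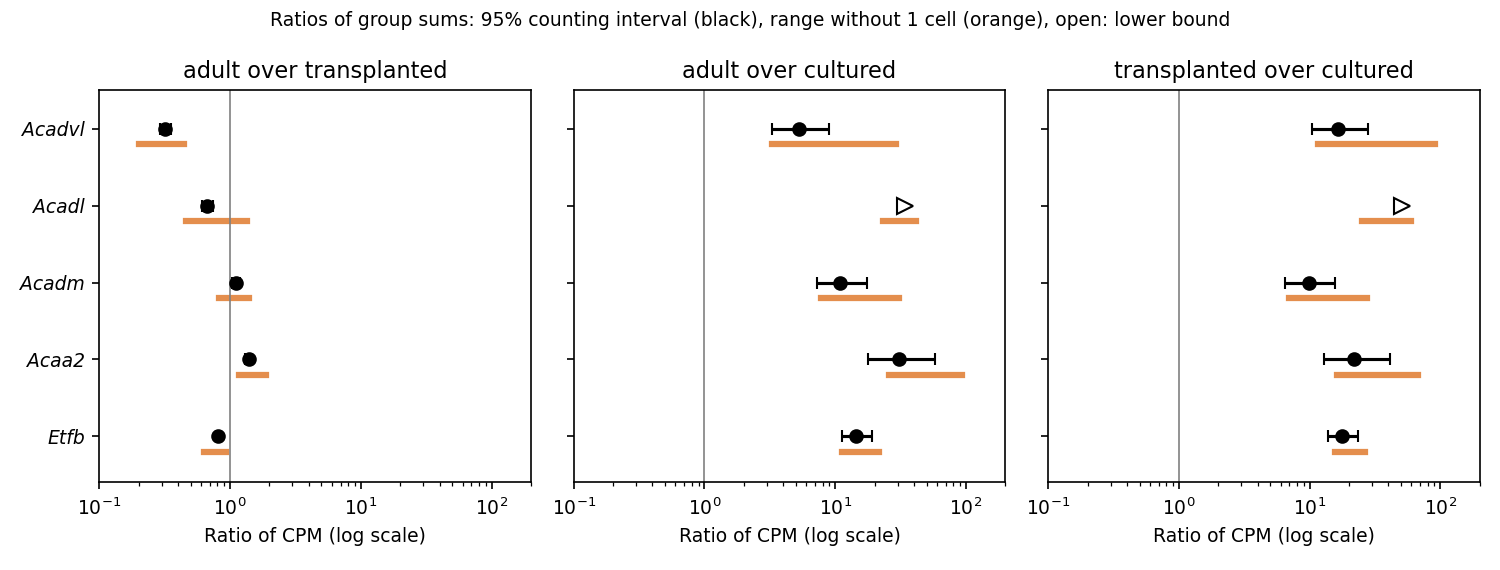
Ratio between groups for the 5 abundant genes on a log axis, adult over transplanted, adult over cultured and transplanted over cultured, with exact 95% counting intervals in black, the range without 1 cell in orange and open triangles for lower bounds. All 5 lie above 2-fold in both comparisons with cultured cells and scatter on both sides of 1 between adult and transplanted cells.

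By chain length, the dehydrogenase counts of adult cells leaned less to long chains than those of transplanted cells. Acadvl and Acadl together made up 44.8% (42.9 to 46.7) of the 2704 dehydrogenase counts in adult cells and 67.3% (65.9 to 68.7) of the 4204 counts in transplanted cells. The share was 45.0% (29.3 to 61.5) of only 40 counts in cultured cells, 18 of them from 1 cell. Divided by exon length, the long-chain share was 58.1% in adult and 77.0% in transplanted cells. By the exon length shared with no other gene, it was 64.5% in adult and 82.8% in transplanted cells. Acadvl had 21.5% of the counts in adult and 44.4% in transplanted cells, while Acadl had 23.3% in adult and 22.9% in transplanted cells. Without transplanted cell H the transplanted Acadl share was 11.9%, so the near equality of the Acadl shares rests on that cell. Acadm had 55.0% in adult and 32.6% in transplanted cells. Acads took 0.185% (0.0601 to 0.431) in adult and 0.119% (0.0386 to 0.277) in transplanted cells, and 0 of 40 counts in cultured cells, which allows up to 7.50% (3 counts).

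Within single cells this difference was smaller than the spread between cells. Among the 7 adult cells with at least 10 dehydrogenase counts, the long-chain share was 2.56% at the lowest, 42.7% at the median and 80.5% at the highest. Among 8 transplanted cells it was 0%, 68.4% and 100%. Long chains made up over 50% of the counts in 3 of these 7 adult cells, 5 of these 8 transplanted cells and 1 of the 2 such cultured cells. The odds of a long-chain count over an Acadm count were lower in adult than in transplanted cells, with an odds ratio of 0.394 (0.356 to 0.436; 0.700 without transplanted cell H). For Acadvl over Acadm it was 0.287 (0.255 to 0.324; 0.185 without adult cell C, 0.432 without transplanted cell H). For Acadvl over Acadl it was 0.477 (0.415 to 0.549; 0.308 without adult cell C, 0.801 without adult cell G, 0.262 without transplanted cell H). For Acadl over Acadm it was 0.602 and turned to 1.65 without transplanted cell H. The long-chain odds of adult and cultured cells had a ratio of 0.996 (0.507 to 1.98), an interval too wide to tell them apart, and it was 0.317 without cultured cell G. Transplanted over cultured cells gave 2.53 (1.29 to 5.01), but 1.42 without transplanted cell H and 0.804 without cultured cell G. Without cultured cell E neither can be formed, since cultured cells then have no long-chain count.

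**Figure D4:**
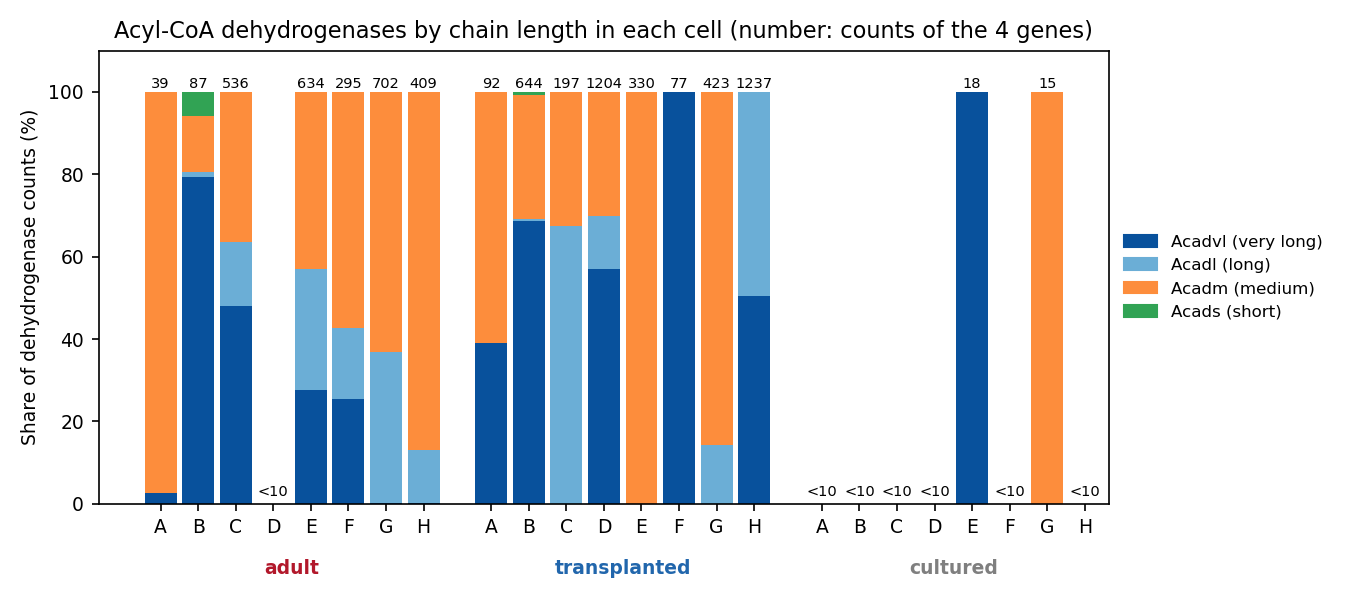
Share of Acadvl, Acadl, Acadm and Acads in the summed counts of the 4 genes, in percent, in each adult, transplanted and cultured cell with at least 10 such counts, whose number stands above the bar. The long-chain part, in blue, spans 2.56 to 80.5% in adult cells and 0 to 100% in transplanted cells.

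Sums by chain class reuse the same dehydrogenase counts, so they are no further support for the lean described above. Acaa2 was placed with the medium chains, although it also acts on longer ones. Cpt1b, Acadvl, Acadl and Acot2 summed to 967 CPM in adult, 2178 CPM in transplanted and 87.3 CPM in cultured cells, an adult-to-transplanted ratio of 0.444 (0.415 to 0.475). Acadm and Acaa2 summed to 3099 CPM in adult, 2436 CPM in transplanted and 170 CPM in cultured cells, with an adult-to-transplanted ratio of 1.27 (1.21 to 1.33). Acaa2 counts per Acadm count were also higher in adult cells, with an odds ratio of 1.25 (1.14 to 1.38), which was 0.887 without adult cell A and 2.31 without transplanted cell H.

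Acadvl, Acadl and Acadm were all counted in 6 of 8 adult, 2 of 8 transplanted and 0 of 8 cultured cells. With at least 3 counts of each gene, the numbers were 3 adult, 2 transplanted and 0 cultured cells. None of the 4 dehydrogenases was counted in 4 cultured cells, and at least 1 was counted in every adult and transplanted cell. In transplanted cell E only Acadm of the 4 had counts (330), and in transplanted cell F only Acadvl (77). A gene at a group level of 400 to 2000 CPM was counted in a median of 6 of 8 cells both over 250 such genes in adult cells and over 237 in transplanted cells, so gaps like those of Acadl, Acadm and Acadvl are common at these levels. With every cell thinned to 16099 counts, Acadvl would be found in 4.43 adult and 4.99 transplanted cells on average, against 8 adult and 5 transplanted cells at full depth. Across the 8 adult cells Acadl and Acadm levels had a Spearman rho of 0.86, the highest of the 10 pairs among Acadl, Acadm, Acadvl, Acaa2 and Etfb there, described over cells that share their preparation. Acadl and Acadvl had 0.62, Acadm and Acadvl 0.21, and the other pairs between -0.40 and 0.05. In the 8 transplanted cells no pair of these genes was above 0.22.

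The remaining pathway was described through 58 other listed genes. At least 2-fold higher levels in adult than cultured cells were found for 27 of the 44 with enough counts (61.4%, against 23.0% of all genes), and 10 were lower (22.7%, against 62.1%). Of the higher genes, Hadha, Hadh, Eci1, Decr1, Acot8, Rxrg, Mlycd and Acacb had 0 counts in cultured cells. Acad12, Esrra, Eci2, Cpt2, Acat1, Etfa and Abcd3 had 1 to 3 there. These genes passed the minimum only through adult cells, so the share is no support by itself. The share in transplanted against cultured cells has the same limit. In transplanted against cultured cells 19 of 35 were higher (54.3%, against 22.5%) and 13 lower (37.1%, against 64.0%). Between adult and transplanted cells 17 of 39 were higher in adult cells, or 43.6%, near the 44.3% of all genes, and 8 were lower (20.5%, against 34.8%). In group sums, the steps that follow the dehydrogenases differed in the same direction as the 5 abundant genes. The list of 5 genes for the hydration and hydroxyacyl step includes Hadhb, a thiolase subunit. All 5 were at least 2-fold higher in adult than in cultured cells, and also in transplanted than in cultured cells. So were all 4 auxiliary isomerases and reductases and both counted partners of Etfb, Etfa and Etfdh. For Etfdh this rests on single cells. Its adult-to-cultured ratio turned to 0.132 without adult cell H and was 25.8 without cultured cell B. Its transplanted-to-cultured ratio was 1.47 without transplanted cell G and 14.5 without cultured cell B. Of these 11 genes, 4 had 0 counts and 2 had 2 or 3 counts in cultured cells, so they passed the minimum only through the other group and the count is no support. None of the 5 hydration and hydroxyacyl genes differed by 2-fold between adult and transplanted cells, but 3 of them did when 1 transplanted cell was left out. Hadh was then 7.18-fold higher in adult cells (without D), Echs1 2.96-fold (without E) and Hsd17b10 2.25-fold (without H). Leaving out 1 adult cell moved ratios the other way. The adult-to-transplanted ratio was then 0.705 for Hadh (without G), 0.663 for Hadha (without B) and 1.13 for Hsd17b10 (without H).

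Ech1, an isomerase for unsaturated chains, had 4444 CPM in adult, 3284 CPM in transplanted and 189 CPM in cultured cells, an adult-to-cultured ratio of 23.5 (17.2 to 33.1; 79.2 without cultured cell D). Etfa had 1486, 1796 and 14.6 CPM in adult, transplanted and cultured cells, with an adult-to-cultured ratio of 102 (34.9 to 496; 279 without cultured cell F). Hadhb, the thiolase subunit of the trifunctional protein for long chains, had 563 CPM in adult, 577 CPM in transplanted and 72.8 CPM in cultured cells. The short-chain hydratase Echs1 had 905 CPM in adult, 578 CPM in transplanted and 58.2 CPM in cultured cells. Acot13, a thioesterase, had 2888 CPM in adult, 1920 CPM in transplanted and 48.5 CPM in cultured cells.

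Acat1, the thiolase that acts on acetoacetyl-CoA at the end of the chain and in ketone use, was lower in adult than in transplanted cells. It had 241 CPM in adult, 2078 CPM in transplanted and 14.6 CPM in cultured cells, 8.61-fold lower in adult than in transplanted cells (7.65 to 9.72; a ratio of 0.0317 without adult cell B). Eci1, an isomerase, was 2.49-fold lower in adult cells (569 CPM) than in transplanted cells (1413 CPM), and 6.73-fold higher in adult cells without transplanted cell H.

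Of the carnitine and activation genes, 4 of 6 were at least 2-fold higher and 2 lower in adult than in cultured cells, where 23.0% of all genes were higher and 62.1% lower. Each of the 4 rests on 1 adult cell. The ratio was 0.284 for Acsl1 without adult cell H, 1.09 for Slc25a20 without A and 1.06 for Crat without F. All 34 adult counts of Cpt2 came from cell B. Without 1 cultured cell the ratios rose, to at least 6.17 for Acsl1, 19.2 for Slc25a20 and at least 14.7 for Crat. The 2 lower genes, Acsl4 and Cpt1c, had 0 adult counts. In transplanted against cultured cells 2 of 6 were higher and 3 lower, where 22.5% of all genes were higher and 64.0% lower. The 2 higher calls also rest on 1 cell each. The ratio was 0.799 for Cpt2 without transplanted cell A and 1.14 for Crat without transplanted cell E. Without cultured cell B that of Crat was at least 26.3. Crat, carnitine acetyltransferase, had 304 CPM in adult, 543 CPM in transplanted and 131 CPM in cultured cells. Its adult-to-transplanted ratio of 0.559 (0.493 to 0.634) turned to 2.04 without transplanted cell E and was 0.255 without adult cell F. All 27 of its cultured counts came from cell B. Cpt2, which remakes acyl-CoA inside the mitochondrion, had 26.7, 254 and 9.70 CPM in adult, transplanted and cultured cells, and the adult-to-transplanted ratio of 0.105 (0.0717 to 0.150) turned to 3.45 without transplanted cell A and was at most 0.0102 without adult cell B.

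TCA cycle genes, a comparison list outside beta oxidation, were at least 2-fold higher for 15 of 21 and lower for 1 in adult against cultured cells, and higher for 16 of 21 and lower for 2 in transplanted against cultured cells. Glycolysis genes were higher for 11 of 16 and lower for 4 in adult against cultured cells, and higher for 9 of 15 and lower for 5 in transplanted against cultured cells. The shares over all genes were 23.0% higher and 62.1% lower for adult, and 22.5% higher and 64.0% lower for transplanted cells. The lower levels in cultured cells were thus not limited to the fatty acid genes. Among 388 genes with counts in at least 12 cells, those closest to the summed level of the 8 genes over 24 cells were Cox5b (Spearman rho 0.867), Ndufb3 (0.861), Ndufb7 (0.842), Ndufa4 (0.814) and Idh2 (0.812), where the median gene had 0.387. The first 4 encode subunits of the respiratory chain and Idh2 encodes a mitochondrial isocitrate dehydrogenase. With each group's mean subtracted, the closest were Ndufa11 (0.614), Grcc10 (0.560), Ttc3 (0.540), Ndufa4 (0.523) and Itgb1 (0.437), with a median gene at 0.0214. These are descriptions over cells that share library and depth within each group.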

How the data were processed

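Full-length cDNA of single cells was amplified by PCR, cut with Tn5 and sequenced without stated molecular identifiers, per the labels' protocols, so counts are reads. The authors deposited whole-number counts per gene and cell, not normalized. Per the submitters' processing notes, TopHat2 version 2.1.0, HTSeq, DESeq2 and the build mm10 were used, and no rat build is named. No source used here gives the annotation or the strand setting. Totals are of the 9595 listed genes, of which 692 had no count. GENCODE M21, also on that build, gave exon lengths, with 99.2% of symbols matched, and promoters from RefSeq on GRCm38.p6, where 6 of the 8 genes had a window.

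Groups followed the sample titles, and cell letters only name cells. Every pair of cells within a group differed beyond sampling noise (chi-square per degree of freedom at least 13.6 over 84 pairs). Counts were summed over cells with Python 3.11.15, pandas 2.3.3 and scipy 1.17.1. A CPM has an exact Poisson interval, a ratio an exact conditional binomial interval, a share a Clopper-Pearson interval and an odds ratio an exact conditional interval, all at 95%. No ratio is given with both groups at or under 3 counts. A gene counted as higher or lower at a 2-fold ratio with at least 10 counts over both groups. The scripts were tested on simulated data.

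The 8 genes and the gene lists were chosen with earlier results of these data known. Named genes are the 8, drawn from the 3 of each pathway list with the highest summed CPM, of which some are not reported here, and the 5 genes closest in Spearman rho of log2(CPM + 1). Cpt1a, Cpt1c and Dvl2 were named after their values were seen. So were Hadh, Hadha, Eci2, Slc25a20, Acsl4, Acad12, Acot8 and Abcd3. Alternatives were scaling by TMM (edgeR 4.0.16), by DESeq2 1.42.0 size factors and by the protein-coding total, equal cell weights, other minimums and folds, and leaving out each cell. Cells that moved a printed ratio by over 1.5 times are named with it.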

Additional observations from a re-analysis of the deposited data

Results flagged for a closer look

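In 10 of 23 sets of 8 cells tested, the highest cell stood far from the others relative to the set's range. Chance gives about 1 in 20 for sets of measured values, but in 8 of the 10 the other cells were all at 0, and a set with 1 counted cell stands out by construction, so that rate is no yardstick here. Acads stood out in adult cell B at 42.3 CPM and in transplanted cell B at 40.3 CPM, with the other 7 cells of each group at 0. Acot2 stood out in adult cell E at 114 CPM and in transplanted cell H at 20.3 CPM, again with 0 in the other cells of the group. Cpt1b stood out in adult cell G at 11.6 CPM and in transplanted cell A at 7.04 CPM, which are 2 counts and 1 count. Among cultured cells, Acaa2 stood out in cell B at 214 CPM and Acadvl in cell E at 1118 CPM, with 0 in the other cells. Acadm stood out in cultured cell G at 662 CPM, where the next cell had 216 CPM. Etfb stood out in cultured cell G at 1059 CPM, where the next cell had 494 CPM.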

How the results depend on the processing

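All 198 alternatives of the gene ratios against cultured cells stayed at least 2-fold higher. TMM scaling moved every ratio against cultured cells by 0.92 on the log2 scale, so that the summed ratio was 28.6 for adult and 33.7 for transplanted over cultured cells. The summed adult-to-transplanted ratio was 0.796 with DESeq2 size factors and 0.881 without Etfb, an alternative chosen after seeing the data. Without single cells it ran between 0.763 and 0.933, the adult-to-cultured ratio between 13.2 and 20.6 and the transplanted-to-cultured ratio between 15.6 and 24.4. The count of genes at least 2-fold higher in adult than transplanted cells was 0 at a minimum of 50 counts and 0 at 3-fold, and 0 to 1 without single cells, while both counts against cultured cells stayed at 5. Acot2 turned direction without adult cell E, to 0.494, and was at least 4.02 without transplanted cell H. The Acads share of dehydrogenase counts in adult cells was 0.821% with equal cell weights. Without single cells it was 0 to 0.250% in adult, 0 to 0.169% in transplanted and 0 to 0% in cultured cells.

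No paired analysis was possible because the cell letters only name cells and no test between groups was made. With 206178 counts in all, 0 counts in cultured cells allow a level of up to 14.6 CPM (3 counts), which limits every statement on Acads, Acot2 and Cpt1b there.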

Other observations

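Fatty acid oxidation in peroxisomes, which shortens chains too long for mitochondria, was described by 10 listed genes. Between adult and transplanted cells 7 of 8 with enough counts were at least 2-fold higher in adult cells and 0 were lower, where 44.3% of all genes were higher and 34.8% lower. In adult against cultured cells 5 of 9 were higher and 2 lower (all genes, 23.0% and 62.1%), and in transplanted against cultured cells 1 of 5 was higher and 4 were lower (all genes, 22.5% and 64.0%). Scp2, a peroxisomal thiolase and sterol carrier protein, had 127 CPM in adult, 157 CPM in transplanted and 67.9 CPM in cultured cells. Its adult-to-transplanted ratio of 0.809 (0.654 to 0.999) turned to 4.86 without transplanted cell H and was 0.238 without adult cell A. The transplanted-to-cultured ratio of 2.31 (1.34 to 4.29) turned to 0.384 without transplanted cell H and was 7.42 without cultured cell C. Abcd2, a peroxisomal transporter of very long chains, had 0 CPM in adult, 0 CPM in transplanted and 388 CPM in cultured cells, all of it from cultured cell B.

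Regulators of fatty acid oxidation were 14 listed genes. Of 8 with enough counts, 6 were at least 2-fold higher and 2 lower in adult than in transplanted cells, where 44.3% of all genes were higher and 34.8% lower. The 6 were Ppara, Esrra, Esrrb, Rxrg, Mlycd and Acacb, named after their values were seen, and 3 of them (Esrra, Esrrb and Rxrg) were counted in 1 adult cell. Without adult cell B the ratio of Ppara was 0.706, without adult cell D that of Acacb was 0.191, and without adult cell H Esrra had no adult count. Against cultured cells 4 of 11 were higher and 5 lower in adult cells, and 2 of 7 were higher and 5 lower in transplanted cells (all genes, 23.0% and 62.1% in adult, 22.5% and 64.0% in transplanted cells). Mlycd, which breaks down the inhibitor malonyl-CoA, had 394 CPM in adult, 122 CPM in transplanted and 0 CPM in cultured cells, and its adult-to-transplanted ratio of 3.23 (2.70 to 3.88) turned to 0.761 without adult cell F and was 5.89 without transplanted cell F.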
